A study of Solanum lycopersicum with 8 samples.

Results

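Among the accessible chromatin regions (ACRs) listed for young tomato leaves, 884 intervals on chromosomes 1 to 12 spanned 4000 bp or more. They were chosen by width alone, as the listed end minus the listed start, from the 69143 ACRs on chromosomes, and they made up 1.28% of those ACRs (exact 95% binomial interval 1.20 to 1.37%). The whole leaf list, with unplaced sequence included, held 69690 ACRs. The assay was ATAC-seq, where open DNA is cut by a transposase that adds sequencing adapters, on 6 biological replicates taken from young leaves (terminal leaflet) of Solanum lycopersicum cultivar M82. All replicates were untreated, greenhouse-grown and of 1 tissue, and the genotype label of each reads M82, although the growth text of the labels also names the anantha mutant in that background for the ATAC-seq plants; the plants' age at sampling is not stated for leaves. From 1 g of leaflets per sample, 100000 nuclei went into a transposase reaction. The authors deposited 1 list for the 6 replicates, so the spread between replicates is unknown, as is the read depth behind each ACR. Errors below are therefore counting intervals or spreads over chromosomes. The 2 Hi-C samples of the series were not analysed here.

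Open chromatin in plant leaves is found mainly as short intervals at gene starts and at nearby regulatory elements, where bound proteins displace nucleosomes. A peak caller joins neighbouring positions with signal into 1 interval, so a wide interval can hold several such elements. In tomato, genes are concentrated in the distal parts of the chromosome arms, and the pericentromeric interior is largely heterochromatin. Neither gene names nor sequences are given for the positions below, because no annotation or genome of the SL4.0 assembly, whose sequence names the list carries, was used here.

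The wide ACRs covered 5.14 Mb, or 8.26% of all bases in chromosomal ACRs. Their median width was 5104 bp, with quartiles of 4397 and 6419 bp, against a median of 659 bp for the 68259 narrower ACRs. Widths near the limit predominated: 415 of the 884, or 46.9%, were narrower than 5 kb, and 43 reached 10 kb. The limit of 4000 bp cut a continuous range. The narrowest wide ACRs measured 4004 bp on chromosome 5, 4005 bp on chromosome 4 and 4009 bp on chromosome 11. The widest of the narrower ACRs measured 3999 bp on chromosome 7 and 3997 bp on chromosomes 6 and 9. Between 3900 and 4000 bp there were 55 ACRs, and 67 wide ACRs lay below 4100 bp.

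The 10 widest chromosomal ACRs came from 5 chromosomes and lay in the first or last 20% of them. On chromosome 8 (SL4.0 throughout), the widest interval ran from 9484880 to 9517651, a width of 32.8 kb with a −log10 q of 14.1. The next on that chromosome ran from 9539442 to 9560996 and measured 21.6 kb. Another, from 9518147 to 9535760, measured 17.6 kb. These 3 lay close together in the first 20% of the chromosome. One more, at 59431587 to 59449181 in the last 20% of chromosome 8, also measured 17.6 kb, and its −log10 q was 14.6. On chromosome 3 there were 2 of the 10, at 59224860 to 59244290 with 19.4 kb and at 64874383 to 64888538 with 14.2 kb, both in the last 20%. Chromosome 1 likewise held 2, at 88479923 to 88494609 with 14.7 kb and at 86507988 to 86522327 with 14.3 kb. The others measured 15.3 kb, at 7395658 to 7410916 on chromosome 4, and 13.9 kb, at 1848804 to 1862733 on chromosome 7. Of these 10 ACRs, the second on chromosome 1 had the weakest −log10 q, 4.89, and the one at the end of chromosome 8 the strongest.

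On the remaining chromosomes the widest ACR was between 10.4 and 13.8 kb. It lay at 33774018 to 33786563 on chromosome 2 (12.5 kb), at 59484576 to 59494996 on chromosome 5 (10.4 kb) and at 8649077 to 8662883 on chromosome 6 (13.8 kb). On chromosome 9 it lay at 63643508 to 63654356 (10.8 kb), and on chromosome 10 at 63501049 to 63512442 (11.4 kb). Chromosome 11 had its widest at 4897564 to 4908981 (11.4 kb) and chromosome 12 at 17851967 to 17863958 (11992 bp). Those of chromosomes 2 and 12 lay in the interior, and those of the other 10 chromosomes in the first or last 20%. The one on chromosome 12 had a −log10 q of 3.21, whereas that on chromosome 2 had 12.2.

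Wide ACRs were unevenly spread over chromosomes. Chromosome 1 held 120, chromosome 3 held 118 and chromosome 2 held 115, and chromosome 11 held 35, the fewest. As a share of each chromosome's ACRs they made up 1.24 ± 0.28% (SD, n = 12 chromosomes). The share was 1.64% on chromosome 3, 1.56% on chromosome 7 and 1.52% on chromosome 2. It was 0.82% on chromosome 9, 0.83% on chromosome 11 and 0.91% on chromosome 5, so chromosomes poor in wide ACRs were poor relative to their own lists as well. Per Mb of extent, taken as the position of the last ACR, chromosome 2 had 2.15 wide ACRs and chromosome 9 had 0.61. Median widths of the wide ACRs differed less, with chromosome 5 lowest at 4671 bp and chromosome 12 highest at 5643 bp.

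**Figure D1:**
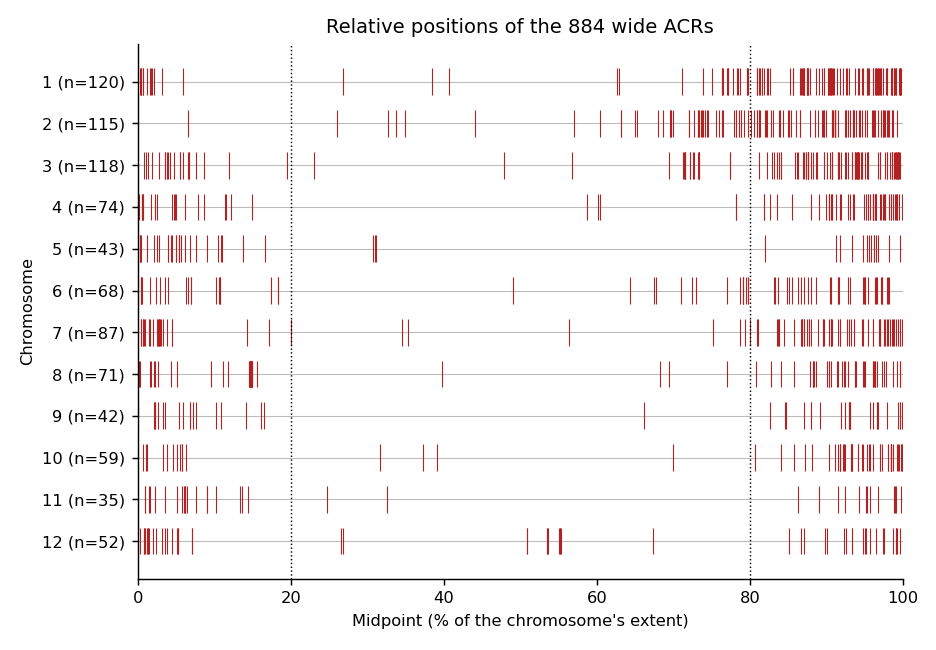
Each red line marks the midpoint of 1 wide ACR as a percentage of its chromosome's extent (x axis), with chromosomes on the y axis and the number of wide ACRs beside each; dotted lines mark the first and last 20%. The last 20% held 533 of the 884 wide ACRs, and chromosome 2 had 1 in its first 20%.

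Wide ACRs lay at the chromosome ends more often than narrower ACRs did. With all chromosomes pooled, their share was higher in the last 20% and not in the first. The last 20% held 60.3% of wide and 51.9% of narrower ACRs. The first 20% held 24.5% of wide and 25.7% of narrower ACRs. These pooled shares also depend on how wide and narrower ACRs are spread over chromosomes. The first and the last 20% were not compared within chromosomes and were not tested separately. The first and last 20% of the extents together held 750 of the 884, or 84.8% (exact 95% binomial interval 82.3 to 87.1%), and the same parts held 77.6% of the narrower ACRs. The interval covers counting error only, and neighbouring wide ACRs are not independent. Computed on each chromosome, the share was higher for wide ACRs on 11 of 12 chromosomes, by a mean of 8.24 percentage points (SD 6.15; 95% interval 4.33 to 12.2; exact permutation test by sign flips over chromosomes, two-sided, p = 0.00293, with 0.000488 as the lower bound of the design). Since all chromosomes come from the same list and are no biological replicates, this p-value carries no error between replicates. It compares the mean difference with the means obtained when the signs of the chromosomes' differences are flipped. A small value does not make the difference even over chromosomes, where it ran from −7.27 to 14.7 percentage points. An association of width with position was already known from this list, so the test is not independent support for it.

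The difference was greatest on chromosome 10, where 93.2% of wide ACRs and 78.6% of narrower ACRs lay at the ends. It was 14.0 percentage points on chromosome 9, with 41 of 42 wide ACRs at the ends, and 13.8 on chromosome 2. Chromosome 2 had the lowest share of wide ACRs at the ends, 64.3% against 50.6% of narrower ACRs, and it was the chromosome with 1 wide ACR in its first 20%, 73 in its last and 41 in its interior. The smallest difference in the same direction was on chromosome 1, 3.31 percentage points. Chromosome 12 went the other way, with 76.9% of wide ACRs (exact 95% binomial interval 63.2 to 87.5%) and 84.2% of narrower ACRs at its ends. Its share of narrower ACRs lay within the counting interval of the wide ones. This was so on most chromosomes, and only on chromosomes 2, 8, 9 and 10 did the narrower share lie below that interval.

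**Figure D2:**
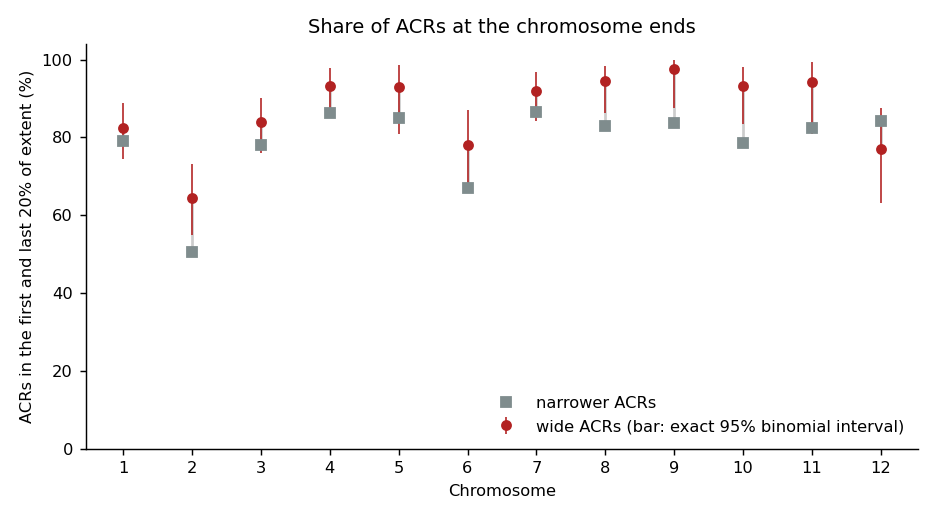
Share of ACRs (y axis, %) whose midpoint lay in the first or last 20% of the extent, by chromosome (x axis). Red circles are wide ACRs with exact 95% binomial intervals and grey squares are narrower ACRs; the red circle lies above the grey square on 11 of 12 chromosomes and below it on chromosome 12.

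With each extent cut into 10 equal parts, the tenth part held 376 wide ACRs, or 42.5% (exact 95% binomial interval 39.2 to 45.9%), and 33.7% of the narrower ACRs. The first part held 171 wide ACRs, a share of 19.3% (16.8 to 22.1%) against 21.1% of the narrower ACRs, and the second part held 5.20% (3.83 to 6.88%) against 4.60%. In the first and second parts the share of narrower ACRs lay within the counting interval of the wide ones, and in the tenth part it lay below it. Parts 3 to 6 were thinly filled, with 7, 14, 4 and 13 wide ACRs. They were thinly filled with narrower ACRs as well, with 2.00, 2.08, 2.30 and 2.15% of them. Wide ACRs were 1.61 of every 100 ACRs in the tenth part and 0.25 of every 100 in the fifth. Of the 134 wide ACRs in the interior, 96 lay between 60 and 80% of the extent, 17 between 40 and 60% and 21 between 20 and 40%. Narrower ACRs leaned the same way: of 15277 in the interior, 3182 lay in part 7 and 6277 in part 8. This lean was thus not particular to wide ACRs. Chromosomes 2, 1 and 3 supplied 41, 21 and 19 of the interior wide ACRs.

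The share of wide ACRs also moved with the local number of ACRs. In 1 Mb windows with 1 to 19 ACRs, 14 of 2829 ACRs were wide, or 0.49% (exact 95% binomial interval 0.27 to 0.83%). In windows with 300 or more it was 1.69% (1.53 to 1.87%). The classes between did not rise at each step: the share was 0.61% with 20 to 49 ACRs, 1.12% with 50 to 99, 1.06% with 100 to 199 and 1.27% with 200 to 299. The window at 9 to 10 Mb of chromosome 8 supplied 15 of the 67 wide ACRs of the class with 50 to 99, and without it the share there was 0.88%. The part of local ACR density in the difference between ends and interior was not tested. Of 773 windows that held any ACR, 279 held a wide one, and the 62 windows richest in wide ACRs held 50% of them. These 62 were ranked by that same count, and their share of all ACRs is not given. The 50% therefore does not show that wide ACRs were more concentrated than other ACRs. The richest were 64 to 65 Mb of chromosome 3 and 9 to 10 Mb of chromosome 8, with 15 each, followed by 61 to 62 Mb of chromosome 3 with 13. The 2 richest differed in their other ACRs. The window on chromosome 3 held 392 ACRs in all, of which 3.83% were wide, and that on chromosome 8 held 85, of which 17.6% were wide.

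Wide ACRs rarely stood alone. The median gap from a wide ACR to the next ACR was 236 bp (95% interval of the median from binomial order statistics, 191 to 291 bp), against 900 bp (884 to 918 bp) for narrower ACRs. Width and gap come from the same peak call, so these values are a description and were not tested. With ACRs less than 150 bp apart merged before the width rule, the medians were 808 and 1660 bp. Such merging removes every gap shorter than 150 bp and made 2073 intervals wide, so these medians describe another set. In the list as deposited, the median gap was shorter after wide than after narrower ACRs on each of the 12 chromosomes, between 116 bp (chromosome 7) and 543 bp (chromosome 5) for wide ACRs and between 727 bp (chromosome 2) and 1140 bp (chromosome 11) for narrower ones. It was 229.5 bp at the ends and 362.5 bp in the interior for wide ACRs, and 799 and 1567 bp for narrower ACRs. The gap before a wide ACR was much like the gap after it, with a median of 275 bp.

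Many of these gaps were at or near the shortest in the list, which was 31 bp. Gaps shorter than 100 bp followed 37.1% of wide ACRs and 18.3% of narrower ACRs. A neighbour within 150 bp on at least 1 side was present for 578 wide ACRs, or 65.4%, and a neighbour that close on both sides for 159, or 18.0%. The shares for narrower ACRs were 39.3 and 6.57%. At the other extreme, 10 wide ACRs (1.13%) had no other ACR within 10 kb on either side, against 4.12% of narrower ACRs. The neighbours themselves were mostly ordinary in width: the ACR after a wide one had a median width of 859.5 bp, compared with 663 bp after a narrower one. In the 50 kb on each side, the median number of other ACRs was 33 around wide and 28 around narrower ACRs, and they covered a median of 33.2 and 24.1% of these flanks. ACRs of 3 to 4 kb had nearly the values of the wide ones, with a median of 32 ACRs and 30.6% covered. In the interior the flank medians were 22 ACRs around wide and 11 around narrower ACRs.

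The longest gaps after a wide ACR followed 17500583 to 17506766 on chromosome 2, where 547 kb held no ACR, and 37096278 to 37100895 on chromosome 3, where 408 kb held none. The next were 150 kb after 50400704 to 50407619 on chromosome 4, 144 kb after 52247161 to 52251629 on chromosome 10, and 135 kb after the widest ACR of chromosome 5. The first 3 of these lay in the interior. The ACR on chromosome 2 was also followed, across its gap, by another wide ACR.

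**Figure D3:**
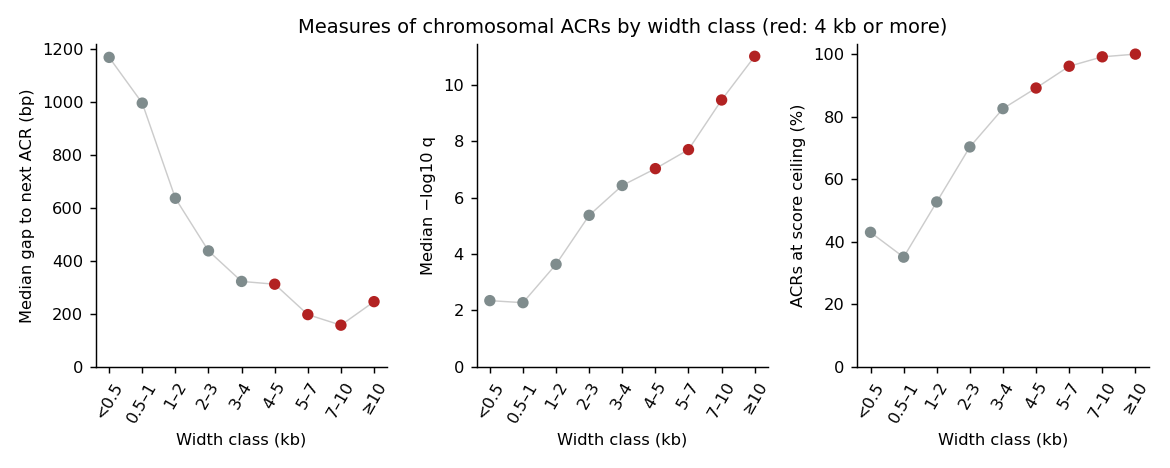
Median gap to the next ACR (bp), median −log10 q and share at the score ceiling (%) on the y axes, for chromosomal ACRs in 9 width classes (x axis, kb); red points are classes of 4 kb or more. The median gap was 322.5 bp for ACRs of 3 to 4 kb and 312 bp for those of 4 to 5 kb, with no step at the limit.

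These measures showed no step at 4000 bp. The median gap to the next ACR was 1170 bp for ACRs under 500 bp, 637 bp for those of 1 to 2 kb, 322.5 bp at 3 to 4 kb and 312 bp at 4 to 5 kb. It was 157 bp at 7 to 10 kb and 246 bp for the 43 ACRs of 10 kb or more. The share at the chromosome ends was 76.5% under 500 bp, 83.2% at 3 to 4 kb (exact 95% binomial interval 80.7 to 85.4%) and 85.5% at 4 to 5 kb (81.8 to 88.8%). Above that it followed no steady course, with 83.9% at 5 to 7 kb, 82.8% at 7 to 10 kb and 90.7% at 10 kb or more (77.9 to 97.4%). In gap and in end share, ACRs just below and just above the limit were thus closer to each other than to the shortest ACRs.

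Runs of wide ACRs with no narrower ACR between them were few. The next ACR was itself wide for 41 wide ACRs, or 4.64%, compared with 1.23% of narrower ACRs. Among narrower ACRs this share was 1.70% at 1 to 2 kb, 2.74% at 2 to 3 kb and 2.72% at 3 to 4 kb. Among wide ACRs of 4 to 5 kb it was 4.58%. Neighbouring wide ACRs formed 39 runs, of which 37 were pairs and 2 were runs of 3, and together the runs held 80 wide ACRs (9.05%). Within runs the median gap was 105 bp, and 35 of 41 gaps were shorter than 1 kb, but 3 exceeded 10 kb, so a run was not always a tight group. Chromosome 1 had 8 wide ACRs followed by another, chromosome 2 had 7, and chromosomes 8 and 10 had 6 each, whereas chromosome 9 had 0.

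One run of 3 spanned 26.2 kb on chromosome 8. Its members lay at 9433733 to 9439042 (5310 bp), at 9439080 to 9448128 (9049 bp) and at 9448447 to 9459913 (11467 bp), separated by 37 and 318 bp. Their −log10 q values were 10.8, 10.0 and 11.2. The other spanned 15.9 kb on chromosome 10, with members at 63779170 to 63783646 (4477 bp), at 63785142 to 63790091 (4950 bp) and at 63790126 to 63795087 (4962 bp). Its gaps were 1495 and 34 bp, and its −log10 q values were 12.99, 10.4 and 7.69. Both runs lay within the first or last 20% of their chromosomes and had every member at the score ceiling.

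Groups were larger when narrower ACRs were allowed between the wide ones. With wide ACRs joined when less than 20 kb apart, 276 of the 884 (31.2%) fell into 118 groups. The typical distance from one wide ACR to the next was longer, with a median of 162 kb and quartiles of 35.8 and 446 kb. Of the 118 groups, 6 held 4 or more wide ACRs. One of 7 lay at 48668315 to 48731925 on chromosome 2, where wide ACRs took up 61.2% of 63.6 kb. One of 5 lay at 63758935 to 63795087 on chromosome 10 and contained the run of 3 there. Chromosome 3 had 3 groups of 4, between 57180957 and 57220966, between 61406273 and 61477993, and between 64865766 and 64923423.

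The group with the most members lay on chromosome 8 between 9390746 and 9587460 and held 11 wide ACRs and 27 narrower ones in 197 kb. ACRs covered 81.9% of this stretch, and the wide ones alone covered 134 kb. The widths of its wide ACRs ran from 5310 to 32772 bp, and 3 of the 4 widest chromosomal ACRs of the list were among them. Their −log10 q ran from 7.18 to 14.1, with a median of 10.0, and 36 of the 38 ACRs of the stretch stood at the score ceiling. After the last of them no ACR was listed for 39.0 kb, but before the first the nearest ACR was 176 bp away. With wide ACRs joined when less than 50 kb apart, the group there was larger, with 14 wide ACRs in 300 kb. The stretch held 11 of the 27 wide ACRs in the first 20% of chromosome 8 and 28.0% of all bases in wide ACRs on that chromosome.

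A stretch of chromosome 6 had wide ACRs of the opposite kind. Between 5006804 and 5073868 it held 3 wide ACRs, of 5702, 4173 and 4079 bp, and 29 narrower ones, which together covered 79.1% of 67.1 kb. The −log10 q of all 32 lay between 1.24 and 2.34, and none of them reached the score ceiling; the highest score was 818. Coverage by ACRs was thus about as high as in the stretch on chromosome 8, whereas the −log10 q values did not overlap between the wide ACRs of the 2 stretches. Both stretches were singled out after their values had been seen, so their lack of overlap says nothing about wide ACRs in general. Over all 884 wide ACRs the quartiles of −log10 q were 5.51 and 9.94.

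Chromosome 12, where wide ACRs were less often at the ends than narrower ones, had 12 in its interior. Of these, 2 lay at 17670564 to 17676647 and 17851967 to 17863958, and 2 at 33881573 to 33888001 and 33892497 to 33901802. A further 3 lay between 35677390 and 35717630, where 14 ACRs covered 95.2% of 40.2 kb, and 4 lay between 36751656 and 36921825. The last, at 44933441 to 44938908, stood apart from these groups. The −log10 q was below 5 for 11 of the 12, with a median of 4.11, and was 11.3 for the last. Among the 40 wide ACRs at the ends of chromosome 12 the median was 6.70, and 10 were below 5. On the other chromosomes the interior medians ran from 3.62 on chromosome 10 to 12.05 on chromosome 9, with 4 and 1 interior wide ACRs.

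The authors' measures of strength were higher for wide than for narrower ACRs, as a description, since they come from the same peak call as the width. The score is a whole number per ACR with a ceiling of 1000, and 826 wide ACRs (93.4%) stood at the ceiling, against 43.1% of narrower ACRs. The median −log10 q was 7.82 for wide ACRs, with quartiles of 5.51 and 9.94, and 2.55 for narrower ones. Each of the 884 had a q of 0.05 or lower. Most narrower ACRs met that limit too, and 2096 of the 68259 did not. By chromosome, the median −log10 q of wide ACRs ran from 6.02 on chromosome 12 to 8.99 on chromosome 9.

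Within the wide ACRs, the median −log10 q was higher in wider classes, with 7.04 at 4 to 5 kb, 7.71 at 5 to 7 kb, 9.47 at 7 to 10 kb and 11.03 at 10 kb or more. The share at the score ceiling was 89.2% in the first of these classes and 100% in the last. Single ACRs varied widely around these medians. The 5 wide ACRs with the strongest −log10 q were 4167 to 11799 bp wide. They lay on chromosome 3 at 61200035 to 61205888 (16.8) and 64707632 to 64719430 (16.7), on chromosome 8 at 58878413 to 58882579 (16.0), on chromosome 6 at 37209955 to 37217282 (15.7), and on chromosome 4 at 63925279 to 63931457 (15.6). The 5 weakest included the 3 of the stretch on chromosome 6, with 2.13, 2.19 and 1.83. The others were 9704374 to 9708606 on chromosome 7, whose −log10 q was 1.88 and whose score of 426 was the lowest among wide ACRs, and 3505698 to 3510124 on chromosome 2, with 1.99. The latter was the wide ACR in the first 20% of chromosome 2. The 58 wide ACRs below the score ceiling had a median −log10 q of 3.18, compared with 8.09 at the ceiling. They were up to 7.17 kb wide, and 82.8% of them lay at the chromosome ends.

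**Figure D4:**
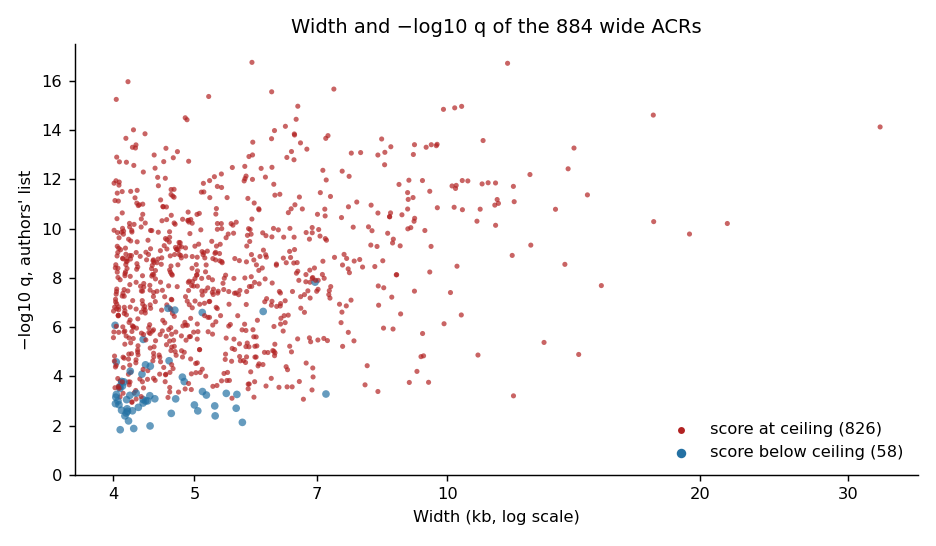
Each point is 1 wide ACR, with its width (kb, log scale) on the x axis and the authors' −log10 q on the y axis; red points stand at the score ceiling (826) and larger blue points below it (58). Values of −log10 q run from 1.83 to 16.8, and ACRs a little over 4 kb wide span most of that range.

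Wide ACRs extended further when close neighbours were joined. Joining ACRs with gaps shorter than 150 bp placed the 884 in 849 joined intervals with a median width of 6709 bp, and 543 of these (64.0%) took in at least 1 other ACR. The widest ran from 9484323 to 9535760 on chromosome 8 and measured 51.4 kb. It was followed by 34.8 kb at 59222486 to 59257240 on chromosome 3, around the widest ACR of that chromosome. A further 1224 joined intervals reached 4000 bp although none of their members was that wide, so the listed wide ACRs were fewer than the stretches of that length covered by closely spaced ACRs.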

How the data were processed

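ATAC-seq peaks came from 6 leaf replicates as 1 list. Per the submitters' processing notes, Trimmomatic, BWA, Picard, SAMtools, bedtools and Genrich 0.6 were used, with settings that the sources used here do not give. The score and the −log10 q of each peak are values deposited by the authors. Both are used here only within the list. Sequence names are those of SL4.0. The file header names the GFF format although the columns are those of BED; starts were taken as 0-based and printed 1-based. Depth is unknown.

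The wide regions, the width limit and the measures were chosen with earlier results of these data known. A region belongs to the part of the extent that holds its midpoint. Gaps run from one peak's end to the next start. The share at the ends was compared by an exact permutation test (sign flips over 12 chromosomes, two-sided), and nothing else was tested. The calculation was also run on simulated data, where each ACR was made wide independently of its neighbours. That check does not cover the grouping of wide ACRs. Named regions are the 10 widest, the widest of each chromosome, the 5 highest and lowest −log10 q, runs of 3, those nearest the limit, the 5 longest gaps after a wide region and the 3 richest windows; groups, both stretches and the chromosome 12 interior were chosen after their values were seen. Other width limits, end sizes, filters and a merging of close peaks were tried as alternatives. Python 3.11.15, pandas 2.3.3 and SciPy 1.17.1 were used. The loop list was not used, since it names no assembly and comes from another tissue.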

Additional observations from a re-analysis of the deposited data

Results flagged for a closer look

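Wide ACRs were also listed on unplaced sequence, which entered no comparison above and is given here for that reason. There were 41 of 4000 bp or more among 547 ACRs, or 7.50% (exact 95% binomial interval 5.43 to 10.0%), against 1.28% on chromosomes. Their median width was 6131 bp and the widest measured 45.8 kb. Their median −log10 q was 5.99, and the difference from the chromosomes was not tested.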

How the results depend on the processing

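The count of 884 depends on the width limit: it was 1876 at 3000 bp, 1274 at 3500 bp, 619 at 4500 bp and 469 at 5000 bp, and 2073 with ACRs less than 150 bp apart merged. The share at the ends was 61.9% with ends of 10% on each side, 89.9% with ends of 25% and 87.9% without chromosome 2, and otherwise 84.0 to 85.3%. The difference in end share stayed between 6.43 and 9.65 percentage points over 9 alternatives, with exact sign-flip permutation p from 0.000488 to 0.0142; without chromosome 12, which was chosen after seeing the data, it was 9.65. The share with a wide next neighbour was 6.50% at 3000 bp, 2.99% at 5000 bp and 7.14% with close ACRs merged. Runs numbered 114 at 3000 bp and 13 at 5000 bp; with narrower ACRs allowed between, groups numbered 118 at under 20 kb and 162 at under 50 kb. The median gap was 76 bp to the nearer neighbour and 808 bp with close ACRs merged, where narrower ACRs had 1660 bp. Leaving out 9 to 10 Mb of chromosome 8, also chosen after seeing the data, left 869 wide ACRs, 37 runs and a median gap of 235 bp. The causes of these shifts were not tested. No paired analysis was possible because the list carries no values per replicate, which also prevented leaving replicates out in turn.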
